A study of Homo sapiens with 12 samples.

Results

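The genes described here are 10 kinases and factors of the integrated stress response, measured by RNA-seq in RCC4 cells in which MESH1 was silenced. They were selected by gene symbol: the eIF2α kinases EIF2AK3 (PERK) and EIF2AK4 (GCN2), the transcription factors ATF4, ATF3 and DDIT3 (CHOP), the phosphatase subunit PPP1R15A (GADD34), and TRIB3, CHAC1, SESN2 and DDIT4. All 10 were present among the 23710 gene symbols of the count tables, and all 10 passed the filter on low counts in both experiments. RCC4 is an established clear cell renal carcinoma line that lacks functional VHL, so every group, controls included, shares that background. MESH1 (gene symbol HDDC3) is the human relative of the bacterial enzymes that degrade the alarmone ppGpp, and the study asked how its loss changes the transcriptome. Cells were collected 72 h after transfection with 40 pmol of siRNA. In experiment 1, 3 libraries of siMESH1#1 (siMESH1-CDS in the labels) were compared with 3 of a non-targeting siRNA (siNT), and in experiment 2, 3 libraries of siMESH1#2 (named siMESH1-3UTR in the treatment protocol and by a number in the sample titles) with 3 of their own siNT. The knockdown was transient, all libraries came from a single cell line, and the labels call the libraries of a group biological replicates.

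The integrated stress response starts at a small set of kinases that sense different stresses and phosphorylate the translation initiation factor eIF2α. PERK responds to unfolded proteins in the endoplasmic reticulum and GCN2 to amino acid shortage. Phosphorylated eIF2α lowers general protein synthesis but favours translation of ATF4 mRNA, so that ATF4 activity is set largely at the protein level, which counts of mRNA do not measure. ATF4 activates ATF3, CHOP and many genes of amino acid supply and redox balance, and also GADD34, which directs dephosphorylation of eIF2α and closes the loop. TRIB3, CHAC1, SESN2 and DDIT4 are targets further downstream that act on AKT and CHOP, on glutathione and on mTORC1.

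The sequences of the siRNAs are shown because the comparison between them carries the results below. Both are written as the strand that matches HDDC3 mRNA, 5′ to 3′, with capitals for the 7 bases that pair with guide positions 2 to 8 (the seed).
siMESH1#1: gggaaucacugACAUUGUg
siMESH1#2: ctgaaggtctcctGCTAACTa
The siMESH1#1 target lies in the coding sequence, in exon 2 of HDDC3 (chr15:90932064-90932082, minus strand, GRCh38), and the siMESH1#2 target in the 3′UTR, in exon 4 (chr15:90931109-90931129, same transcript, ENST00000394272.7). The 3′UTRs of the 10 genes held 0 matches to either seed. Among 18625 genes with an annotated 3′UTR, 14.2% held a match for siMESH1#1 and 5.48% for siMESH1#2. HDDC3 itself had 8.23, 6.46 and 7.75 CPM (reads normalised to library size, TMM-scaled) in siNT and 0.158, 0 and 0.316 CPM with siMESH1#1, where the library at 0 allows up to 3 reads or 0.0780 CPM. In experiment 2 it had 13.9, 13.1 and 12.7 CPM in siNT and 1.25, 1.18 and 1.72 CPM with siMESH1#2. The targeted mRNA was thus lower in every siMESH1 library than in every siNT library of its experiment.

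With siMESH1#2, 5 of the 10 genes rose (EIF2AK4, ATF3, DDIT3, PPP1R15A and SESN2), 3 fell (EIF2AK3, TRIB3 and CHAC1), and ATF4 and DDIT4 did not pass the test. The changes that passed with siMESH1#2 were modest, from 65.0% of the siNT mean for TRIB3 to 1.49-fold for SESN2. With siMESH1#1, 3 genes rose (EIF2AK3, EIF2AK4 and ATF3), 2 fell (TRIB3 and SESN2), and 5 did not pass. Without siMESH1#1 replicate 3 all 10 were called, 3 higher and 7 lower, beside 81.3% of all genes. Without any single siNT library or siMESH1#1 replicate 1 only the 3 rises were, beside 60.5% to 62.2% of all genes. In a single fit of 4 groups, experiment 2 takes on the larger spread of experiment 1. There EIF2AK3 alone was called with siMESH1#2, beside 18.2% of all genes. ATF3 and EIF2AK4 rose with both siRNAs, and TRIB3 fell with both. EIF2AK3 and SESN2 changed in opposite directions. Genes were called at a Benjamini-Hochberg adjusted p under 0.05 in edgeR's quasi-likelihood test over all genes, fitted in each experiment alone. The same test called 53.3% of 13568 genes with siMESH1#2 (26.6% higher and 26.7% lower) and 74.1% of 13395 genes with siMESH1#1 (36.9% higher and 37.2% lower). Of 12824 genes tested in both experiments, 15.5% were called higher with both siRNAs, 15.1% lower with both and 11.6% in opposite directions, beside 2, 1 and 2 of the 10 genes. The median log2 change of the 10 genes was 0.13 with siMESH1#2, where that of all genes was 0.0053, and -0.74 with siMESH1#1, where that of all genes was -0.05.

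**Figure D1:**
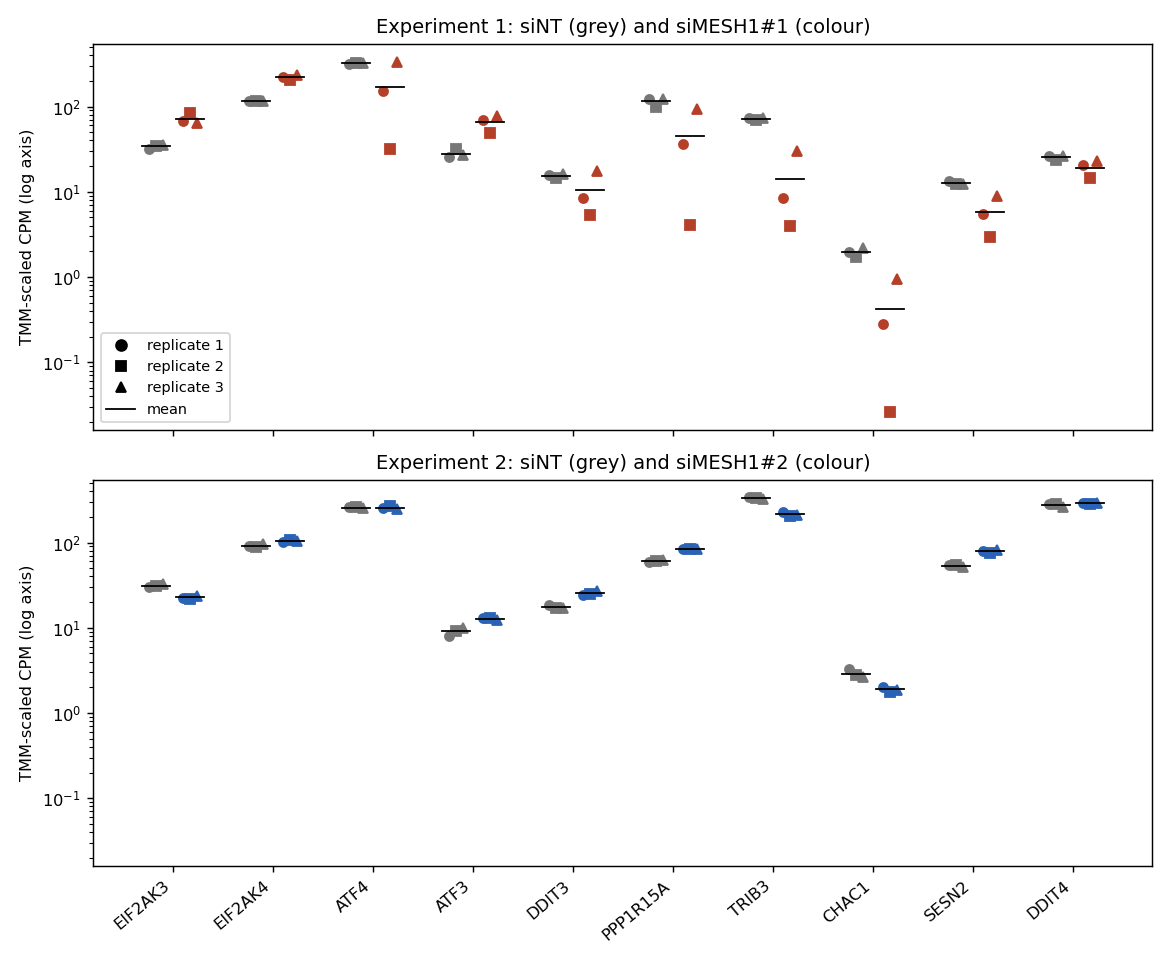
TMM-scaled CPM (log axis) of the 10 genes in each of the 12 libraries, with siNT in grey, siMESH1 in colour, a symbol for each replicate number and a bar at the group mean (3 libraries). In experiment 2 the 3 libraries of a group lie close together, while with siMESH1#1 replicate 2 is lowest and replicate 3 highest for 9 of the 10 genes.

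The libraries held 34063155 to 49134129 reads in genes in experiment 1 and 24787804 to 31651125 in experiment 2. Libraries of a group varied more in experiment 1 than in experiment 2, with a common biological coefficient of variation of 0.299 against 0.0490. The siMESH1#1 libraries stood apart from the rest in 3 measured ways. Their share of reads in no gene was 18.4% to 20.8%, against 14.7% to 15.5% in their siNT. Their replicates differed most, with a chi-square per degree of freedom of 69.2 to 293, against 2.29 to 16.1 within the other groups. Their changes followed the GC content of the transcript, from a median log2 change of 1.11 in the lowest of 10 GC classes to -3.68 in the highest, against 0.14 to -0.09 with siMESH1#2. Values with siMESH1#1 are therefore also given from a fit that corrects each library for transcript GC content (by an offset from a smooth of log2 CPM on GC content). With that correction 66.7% of genes were called, 37.6% higher and 29.2% lower, and 5 of the 10 genes rose (EIF2AK3, EIF2AK4, ATF3, SESN2 and DDIT4) while 0 fell. The same correction called 61.5% of genes with siMESH1#2 (36% higher and 25.5% lower) and all 10 of these, 7 higher and 3 lower. Scaling by library size in place of TMM moved the median of all genes with siMESH1#1 from -0.05 to -0.31 (log2) and turned the direction of none of the 10.

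PERK and GCN2 are the kinases of the set. EIF2AK3 had 31.6, 34.9 and 35.8 CPM in siNT and 68.0, 83.5 and 65.0 CPM with siMESH1#1. The groups did not overlap, and the mean was 2.12-fold that of siNT (log2 change 1.08, SE 0.134, adjusted p = 9.79e-04). After GC correction the log2 change was 0.60 (adjusted p = 0.00228). In experiment 2, EIF2AK3 had 29.9, 30.9 and 32.3 CPM in siNT and 22.4, 21.9 and 23.8 CPM with siMESH1#2. All 3 siMESH1#2 libraries were below all siNT libraries, at 73.0% of the siNT mean (log2 change -0.45, SE 0.0648, adjusted p = 1.83e-05). PERK mRNA thus rose with siMESH1#1 and fell with siMESH1#2. The difference between the siRNAs was 1.39 (log2, SE 0.149, adjusted p = 2.75e-05 in an edgeR contrast over all 12 libraries) and 1.04 with GC correction (adjusted p = 1.68e-05). That contrast filtered and TMM-scaled the 12 libraries together. Differences here and below therefore need not equal the subtraction of the changes fitted in each experiment alone. That contrast called 69.7% of 14154 genes (29.9% higher and 39.8% lower with siMESH1#1) and 8 of the 10 (3 higher and 5 lower).

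EIF2AK4 rose with both siRNAs. Its levels were 117, 118 and 116 CPM in siNT and 221, 206 and 234 CPM with siMESH1#1, without overlap. This was 1.89-fold (log2 change 0.92, SE 0.0816, adjusted p = 4.11e-04), and 0.81 on the log2 scale after GC correction. In experiment 2 it had 90.2, 87.6 and 96.1 CPM in siNT and 102, 107 and 103 CPM with siMESH1#2. These groups did not overlap either, although the change was small (1.14-fold, log2 change 0.19, SE 0.0509, adjusted p = 0.00455). GCN2 mRNA rose more with siMESH1#1 than with siMESH1#2, by 0.57 (log2, SE 0.0985, adjusted p = 5.24e-04). EIF2AK3 and EIF2AK4 have the lowest transcript GC content of the 10 genes, 44.4% and 47.3%. In bulk libraries, more transcript per cell and more cells that hold it cannot be told apart.

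Among the transcription factors, ATF4 mRNA did not pass the test with either siRNA. It had 318, 327 and 327 CPM in siNT and 154, 31.9 and 330.4 CPM with siMESH1#1. The siMESH1#1 libraries spanned 10.4-fold, from far below siNT in replicate 2 to the siNT level in replicate 3, and their mean was 172 ± 150.1 CPM (SD, n = 3). The log2 change was -0.91 (SE 0.733, adjusted p = 0.292), -1.82 without siMESH1#1 replicate 3 (adjusted p = 0.0358), -0.40 without replicate 2 (adjusted p = 0.268) and 0.78 with GC correction (adjusted p = 0.126). In experiment 2 the levels were 259, 258 and 253 CPM in siNT and 256, 266 and 247 CPM with siMESH1#2. Those groups overlapped, with a log2 change of -0.0034 (SE 0.0431, adjusted p = 0.954). With GC correction the siMESH1#2 change was 0.10 and did pass (adjusted p = 0.0173). The difference between the siRNAs was -1.06 (log2, adjusted p = 0.254) and 0.60 with GC correction (adjusted p = 0.277). By limma voom with group weights it was -1.63 (adjusted p = 0.00215). The 4 processed pseudogenes of ATF4 (ATF4P1 to ATF4P4) share sequence with it, and whether reads were split among them was not tested.

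ATF3, a transcription factor induced downstream of ATF4, rose with both siRNAs. It had 25.8, 31.5 and 27.0 CPM in siNT and 68.7, 49.1 and 78.4 CPM with siMESH1#1. The lowest siMESH1#1 library was above the highest siNT library, and the mean was 2.33-fold that of siNT (log2 change 1.22, SE 0.200, adjusted p = 0.00252). With GC correction the log2 change was 1.76. In experiment 2, ATF3 was lower in siNT, at 8.07, 9.20 and 9.86 CPM, and had 12.9, 12.9 and 12.3 CPM with siMESH1#2. This was a 1.41-fold rise without overlap (log2 change 0.49, SE 0.0892, adjusted p = 1.84e-04). In the single fit of 4 groups the adjusted p of the siMESH1#2 change was 0.0719. The change with siMESH1#1 exceeded that with siMESH1#2 by 0.58 (log2, SE 0.231, adjusted p = 0.0450), with adjusted p = 0.131 under library size scaling.

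DDIT3 encodes CHOP, a factor of the prolonged stress response. With siMESH1#2 it rose from 18.7, 17 and 16.8 CPM in siNT to 24.1, 25.0 and 26.7 CPM, 1.44-fold and without overlap (log2 change 0.53, SE 0.0718, adjusted p = 1.09e-05). In experiment 1 it had 15.8, 14.5 and 16.0 CPM in siNT and 8.44, 5.30 and 17.5 CPM with siMESH1#1. Replicates 1 and 2 of siMESH1#1 were below every siNT library and replicate 3 above them. The log2 change was -0.56 (SE 0.435, adjusted p = 0.276), -1.18 without siMESH1#1 replicate 3 (adjusted p = 0.00424), -0.23 without replicate 2 (adjusted p = 0.525) and -0.31 with GC correction (adjusted p = 0.414). The difference between the siRNAs was -1.24 (log2, adjusted p = 0.0333) and -0.90 with GC correction (adjusted p = 0.0364). DDIT3 overlaps MARS on the opposite strand and AC022506.1 on its own strand. MARS, the cytosolic methionyl-tRNA synthetase, changed by -2.08 with siMESH1#1 and by -0.70 with siMESH1#2 (log2), and the strand setting of the counting was not given in the sources used here. The share of such reads in DDIT3 was not tested.

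PPP1R15A encodes GADD34, the subunit that brings a phosphatase to eIF2α. In experiment 2 it had 59.8, 60.8 and 61.8 CPM in siNT and 84.6, 84.3 and 83.9 CPM with siMESH1#2. The siMESH1#2 libraries lay within 1 CPM of each other, and the rise was 1.39-fold (log2 change 0.47, SE 0.0486, adjusted p = 4.53e-07). With siMESH1#1 the levels were 36.0, 4.03 and 94.6 CPM, against 123, 99.1 and 122 CPM in siNT. All 3 were below siNT but spanned 23.5-fold among themselves, and the change did not pass (log2 change -1.36, SE 0.946, adjusted p = 0.232). It was -2.54 without siMESH1#1 replicate 3 (adjusted p = 0.0330), -0.79 without replicate 2 (adjusted p = 0.111) and 0.77 with GC correction (adjusted p = 0.254). The difference between the siRNAs was -1.97 (log2, adjusted p = 0.105), 0.063 with GC correction (adjusted p = 0.941), and -2.95 by limma voom with group weights (adjusted p = 2.70e-04).

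TRIB3, a pseudokinase that binds AKT and restrains ATF4 and CHOP, fell with both siRNAs. In experiment 2 it had 338, 329.9 and 325 CPM in siNT and 227, 207 and 211 CPM with siMESH1#2. The groups were far apart for their spread, at 65.0% of the siNT mean (log2 change -0.62, SE 0.0453, adjusted p = 6.07e-09). In experiment 1 it had 73.2, 69.3 and 74.2 CPM in siNT and 8.51, 3.98 and 29.9 CPM with siMESH1#1. Every siMESH1#1 library was below siNT, at 19.6% of its mean (log2 change -2.35, SE 0.722, adjusted p = 0.0255). That call was lost without any single siNT library or without siMESH1#1 replicate 1 (adjusted p up to 0.0834), the log2 change ran from -1.89 without siMESH1#1 replicate 2 to -3.55 without replicate 3, and the direction turned with GC correction (log2 change 0.39, adjusted p = 0.146), while with siMESH1#2 it was -0.52 after the same correction. The difference between the siRNAs was -1.88 (log2, adjusted p = 0.0428) and 0.67 with GC correction (adjusted p = 0.0555).

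CHAC1 degrades glutathione and was the least abundant of the 10 genes. It fell with siMESH1#2, from 3.25, 2.77 and 2.62 CPM in siNT to 2.05, 1.76 and 1.88 CPM (log2 change -0.61, SE 0.154, adjusted p = 0.00301). The groups did not overlap. In experiment 1 it had 1.95, 1.70 and 2.19 CPM in siNT and 0.285, 0.0260 and 0.949 CPM with siMESH1#1, which rest on 9, 1 and 33 reads. All 3 were below siNT, but the change missed the threshold (log2 change -2.22, SE 0.842, adjusted p = 0.0518) and was 0.88 with GC correction (adjusted p = 0.117). DESeq2 did call it (log2 change -2.29, adjusted p = 0.0217), and it was -3.74 without siMESH1#1 replicate 3 (adjusted p = 0.00175) and -1.62 without replicate 2 (adjusted p = 0.0190). The difference between the siRNAs was -1.77 (log2, adjusted p = 0.0472) and turned to 1.12 with GC correction (adjusted p = 0.0382).

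SESN2 encodes sestrin 2, a stress-induced inhibitor of mTORC1. With siMESH1#2 it rose from 54.9, 54.0 and 51.1 CPM in siNT to 80.4, 76.4 and 81.0 CPM, 1.49-fold and without overlap (log2 change 0.57, SE 0.0529, adjusted p = 1.24e-07). In experiment 1 it fell from 13.4, 12.2 and 12.5 CPM in siNT to 5.44, 2.91 and 8.97 CPM with siMESH1#1. These groups did not overlap either (log2 change -1.14, SE 0.406, adjusted p = 0.0427). The call was lost without any single siNT library or without siMESH1#1 replicate 1 (adjusted p up to 0.118), the log2 change was -0.80 without siMESH1#1 replicate 2 and -1.62 without replicate 3, and with GC correction SESN2 rose with siMESH1#1 as well (log2 change 1.57, adjusted p = 2.61e-04). The difference between the siRNAs was -1.86 (log2, adjusted p = 0.00244) and turned to 0.66 with GC correction (adjusted p = 8.95e-05).

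DDIT4 (REDD1) also inhibits mTORC1 and responds to hypoxia and other stresses. It had 285, 279.8 and 258 CPM in siNT and 289, 281 and 295 CPM with siMESH1#2. The groups overlapped, and the log2 change of 0.072 did not pass (SE 0.0460, adjusted p = 0.203), whereas with GC correction it was 0.18 and did (adjusted p = 2.14e-05). In experiment 1 it had 26.4, 23.9 and 26.1 CPM in siNT and 20.5, 14.4 and 23.0 CPM with siMESH1#1. All 3 siMESH1#1 libraries were lower, with a log2 change of -0.40 that did not pass (SE 0.203, adjusted p = 0.117) and that became 2.12 with GC correction (adjusted p = 0.00121). It was -0.57 without siMESH1#1 replicate 3 (adjusted p = 0.0315) and -0.21 without replicate 2 (adjusted p = 0.146). The fall passed with library size scaling (-0.65, adjusted p = 0.0475), with at least 10 reads in every library (-0.58, adjusted p = 0.0464) and in the single fit of 4 groups (-0.56, adjusted p = 0.00424). The difference between the siRNAs was -0.62 (log2, adjusted p = 0.0182) and 1.76 with GC correction (adjusted p = 1.67e-04). DDIT4 has an antisense gene, DDIT4-AS1, and EIF2AK3 has 2 antisense genes, whose share in these counts was not tested.

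**Figure D2:**
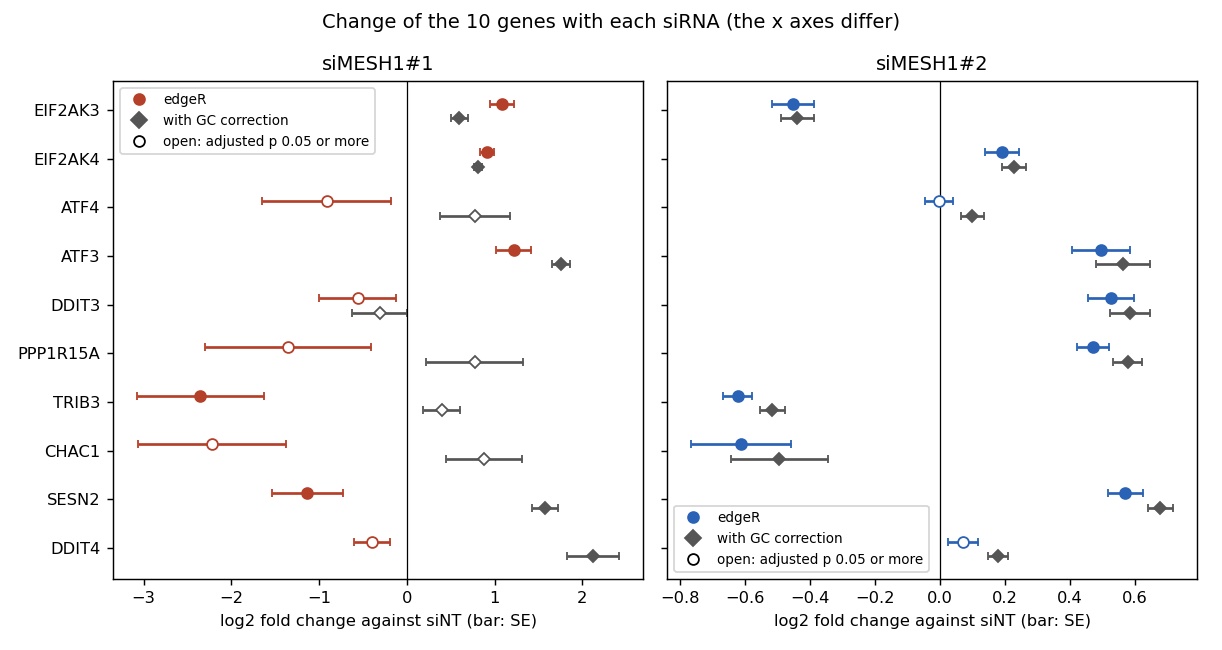
Log2 fold change against siNT (x axis, bars are SE, 3 against 3 libraries) of each gene with siMESH1#1 (left) and siMESH1#2 (right), as fitted by edgeR (circles) and with GC correction (diamonds). Open symbols have an adjusted p of 0.05 or more, and ATF4, PPP1R15A, TRIB3, CHAC1, SESN2 and DDIT4 change sign with GC correction in the left panel and ATF4 in the right.

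The groups did not overlap for 8 of the 10 genes with siMESH1#1 (3 higher and 5 lower), against 82.7% of all genes (40.2% higher and 42.5% lower). With siMESH1#2 they did not for 8 (5 higher and 3 lower), against 59.5% of all genes (29.6% higher and 29.9% lower). An exact two-sided permutation test of 3 against 3 libraries gave p = 0.1 for each of these, the smallest it can give. With siMESH1#1, the spread was shared among the genes: 9 were lowest in replicate 2, and 9 were highest in replicate 3, with EIF2AK3 the exception in both cases. The 3 genes above siNT have a transcript GC content of 44.4% to 50.8%, and the 7 below siNT of 49.7% to 62.6%. Replicate 2 also had the steepest trend with GC content over all genes, with a median log2 difference from siNT of -5.07 in the highest GC class, against -2.69 in replicate 3. What part of the changes with siMESH1#1 this trend accounts for was not tested beyond the corrected values.

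**Figure D3:**
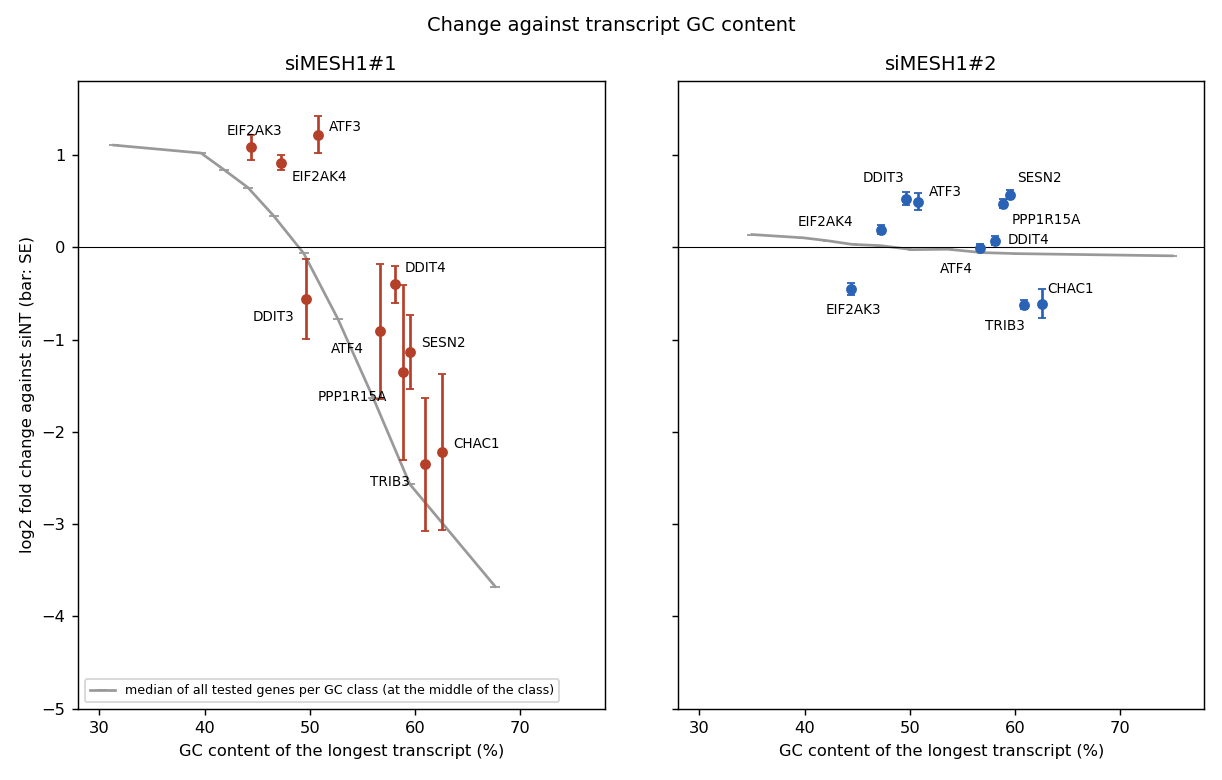
Log2 fold change of the 10 genes (points, bars are SE) against the GC content of the longest transcript, with the median of all tested genes in 10 GC classes as a grey line. With siMESH1#1 the line runs from 1.11 to -3.68 and most of the genes lie above it, while with siMESH1#2 it runs from 0.14 to -0.09.

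Libraries that shared a sequencing lane were also compared. Lane 4 held siMESH1#1 replicate 3 with siNT replicate 1, and lane 6 held siMESH1#1 replicate 1 with siNT replicate 3, so each lane gives a single ratio without a test. EIF2AK3 was higher in both lanes (log2 ratios 1.04 and 0.93), as were EIF2AK4 (1.00 and 0.93) and ATF3 (1.60 and 1.35). TRIB3 (-1.29 and -3.13), CHAC1 (-1.04 and -2.95), PPP1R15A (-0.38 and -1.77), SESN2 (-0.58 and -1.20) and DDIT4 (-0.19 and -0.35) were lower in both. ATF4 (0.056 and -1.09) and DDIT3 (0.15 and -0.92) were near siNT in lane 4 and lower in lane 6. With the lane as a term in the fit, 7 of the 10 genes were called with siMESH1#1, beside 65.3% of all genes. PPP1R15A (log2 change -1.07, adjusted p = 0.0186) and CHAC1 (-1.87, adjusted p = 0.0256) were called in addition to the 5. That fit rests on the 4 libraries of lanes 4 and 6, since siNT replicate 2 and siMESH1#1 replicate 2 were each alone on a lane. All libraries of experiment 2 ran on lane 2.

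Per length of the longest transcript, ATF4 was the most abundant of the 10 mRNAs in the siNT of experiment 1, at 160.4 ± 2.63 CPM per kb (SD, n = 3). It was followed by PPP1R15A (48.3 CPM per kb), TRIB3 (28.9 CPM per kb) and EIF2AK4 (21.2 CPM per kb). DDIT4 (14.6 CPM per kb), DDIT3 (14.4 CPM per kb) and ATF3 (13.8 CPM per kb) overlapped in their libraries and have no order among themselves. EIF2AK3 (7.34 CPM per kb), SESN2 (3.67 CPM per kb) and CHAC1 (1.05 CPM per kb) were lowest. The siNT of experiment 2 had another order, led by DDIT4 (157 CPM per kb), TRIB3 (133 CPM per kb) and ATF4 (127 CPM per kb). There PPP1R15A had 25.6 CPM per kb. DDIT3 (16.4 CPM per kb) overlapped both EIF2AK4 (16.6 CPM per kb) and SESN2 (15.5 CPM per kb), which did not overlap each other. EIF2AK3 (6.68 CPM per kb), ATF3 (4.45 CPM per kb) and CHAC1 (1.56 CPM per kb) came last.

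Promoters of the 10 genes were searched for 3 motifs of stress-responsive transcription, and every match found is shown, whatever the change of its gene. The windows run from 250 bases before to 50 bases after each start in RefSeq (GRCh38.p14), and all 10 genes had at least 1, 15 in all. The motifs, read on both strands, were the C/EBP-ATF response element (TGATGNAA), which ATF4 binds with a C/EBP partner, the cAMP response element (TGACGTCA), which ATF family dimers bind, and the ER stress response element (ERSE), which ATF6 binds with NF-Y. The stretches of 30 bases around each match are shown on the strand of the gene, with the motif in capitals.
ATF3: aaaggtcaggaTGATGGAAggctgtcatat
CHAC1: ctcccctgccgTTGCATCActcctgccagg
PPP1R15A: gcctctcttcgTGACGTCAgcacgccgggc
The ATF3 match (chr1:212565205-212565234) is a C/EBP-ATF element at -191 to -184 from the start, in 1 of its 2 listed promoters, and that of CHAC1 (chr15:40953251-40953280) is the same element on the other strand, at -209 to -202. PPP1R15A holds the cAMP response element at -58 to -51 (chr19:48872352-48872381). The C/EBP-ATF element was in 3.62% of 35116 promoters of the same length, the cAMP response element in 1.85% and the ER stress response element in 0.0769%. Counted by gene, these were 4.46%, 2.25% and 0.0916% of 27305 genes, beside 2, 1 and 0 of the 10 genes. Of the 2 genes with a C/EBP-ATF element, ATF3 rose and CHAC1 fell with siMESH1#2, and a relation of motif to change was not tested. The matches are letters in these windows and no evidence of binding.

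Beyond the 10 genes, 22 genes around eIF2 were followed (the other kinases, subunits of eIF2 and eIF2B, phosphatases, and regulators upstream of eIF2, HSPA5 among them). With siMESH1#1, 13 rose and 8 fell (median log2 change 0.66), where 36.9% of all genes rose and 37.2% fell, and with GC correction 8 rose and 4 fell (median -0.07), where 37.6% and 29.2% did. With siMESH1#2, 5 rose and 7 fell (median 0.039), where 26.6% of all genes rose and 26.7% fell, and with GC correction 9 rose and 8 fell, where 36% and 25.5% did. NCK1, an adaptor, rose with both siRNAs (log2 changes 1.5 and 0.36, in the order siMESH1#1 and siMESH1#2 here and below). With GC correction the NCK1 change with siMESH1#1 was 0.40. DNAJC3, an inhibitor of PERK, rose as well (0.82 and 0.39), though its change with siMESH1#1 was -0.08 with GC correction (adjusted p = 0.296). KIAA0141 (DELE1), which relays mitochondrial stress to the kinase HRI, fell with both (-0.87 and -0.54), and so did the eIF2B subunit EIF2B3 (-0.34 and -0.25). With GC correction neither fall with siMESH1#1 passed the test (-0.20, adjusted p = 0.0657, and -0.18, adjusted p = 0.110). OMA1, the protease that cleaves DELE1, moved in opposite directions (2.20 and -0.46), as did IMPACT, an inhibitor of GCN2 (1.52 and -0.38). With GC correction their changes with siMESH1#1 were 1.26 for OMA1 and 0.53 for IMPACT.

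Close relatives of the 10 genes were followed as a second group, 5 of which belong to other groups described here. Of 11 such paralogs, 10 were tested (DDIT4L was not), 6 rose and 2 fell with siMESH1#1 (median log2 change 0.78), and with GC correction 8 rose and 1 fell (median 0.72). The shares of all genes were 36.9% and 37.2%, and 37.6% and 29.2% with GC correction. With siMESH1#2, 4 rose and 3 fell (median 0.11), beside 26.6% and 26.7% of all genes. With GC correction 6 rose and 3 fell, beside 36% and 25.5%. TRIB1, a relative of TRIB3, rose with both siRNAs, from 47.2 ± 1.06 to 288 ± 26.2 CPM with siMESH1#1 and from 49.9 ± 2.77 to 96.1 ± 3.36 CPM with siMESH1#2 (SD, n = 3 each). TRIB1 thus changed by 2.61 and 0.95 on the log2 scale (adjusted p = 1.68e-04 and 3.60e-10), while TRIB3 fell. SESN1, a sestrin like SESN2, also rose with both (2.24 and 0.25), and so did EIF2AK1, the kinase HRI (0.70 and 0.12). CHAC2, which degrades glutathione like CHAC1, fell with both (-0.85 and -0.90). EIF2AK2, the double-stranded RNA sensor PKR, rose with siMESH1#1 and fell with siMESH1#2 (1.21 and -0.35). With GC correction the changes with siMESH1#1 were 0.24 for EIF2AK2, 0.52 for EIF2AK1 and 1.62 for SESN1. They were 3.65 for TRIB1 and -1.90 for CHAC2.

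Of 7 bZIP and cofactor partners, 1 rose and 4 fell with siMESH1#1 (median log2 change -0.71) and 1 rose and 3 fell with siMESH1#2 (median -0.08). Of all genes 36.9% rose and 37.2% fell with siMESH1#1, and 26.6% rose and 26.7% fell with siMESH1#2. None was called in the same direction with both. CEBPB, a partner of ATF4 and CHOP, fell with siMESH1#1 and rose with siMESH1#2 (-0.87 and 0.67), and with GC correction it rose with siMESH1#1 as well (3.35, adjusted p = 9.12e-04). ATF2, a cAMP response element binding factor, had the opposite pattern (0.49 and -0.43), and was lower with GC correction with siMESH1#1 too (-0.51, adjusted p = 0.00587). With GC correction 3 rose and 3 fell with siMESH1#1, and the same numbers with siMESH1#2. Of all genes 37.6% rose and 29.2% fell with siMESH1#1 after that correction, and 36% rose and 25.5% fell with siMESH1#2.

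Known targets of ATF4 and CHOP, many of them in amino acid metabolism, rose and fell with both siRNAs. Of 42 such genes, 39 were tested, and 12 rose and 20 fell with siMESH1#2 (median log2 change -0.12), beside 26.6% and 26.7% of all genes. After GC correction 13 rose and 19 fell with siMESH1#2, beside 36% and 25.5%. With siMESH1#1, 14 rose and 18 fell (median -0.11), beside 36.9% and 37.2% of all genes, and with GC correction 21 rose and 13 fell (median 0.25), beside 37.6% and 29.2%. Across both siRNAs, 7 rose with both, 13 fell with both and 6 moved in opposite directions, beside 15.5%, 15.1% and 11.6% of all genes. SLC7A5, a transporter of large neutral amino acids, fell from 247.5 ± 17.9 to 76.8 ± 1.64 CPM with siMESH1#2 (log2 change -1.69, SE 0.0546, adjusted p = 3.49e-13). Its fall with siMESH1#1 (-1.74, adjusted p = 0.00923) became a rise with GC correction (1.36, adjusted p = 6.24e-04). CBS, an enzyme of cysteine synthesis, behaved likewise (-1.24 and -0.80, and 1.58 with siMESH1#1 after GC correction). KLHL24, a ubiquitin ligase adaptor, rose with both siRNAs (3.09 and 0.90), as did JHDM1D, a histone demethylase (2.02 and 0.80), also with GC correction (2.05 and 1.06 with siMESH1#1). MAP1LC3B, an autophagy protein, rose with siMESH1#1 and fell with siMESH1#2 (1.17 and -1.49, and 1.32 with siMESH1#1 after GC correction). PSAT1, an enzyme of serine synthesis, moved likewise (0.49 and -0.49) but was lower with siMESH1#1 after GC correction (-0.23, adjusted p = 0.0349).

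**Figure D4:**
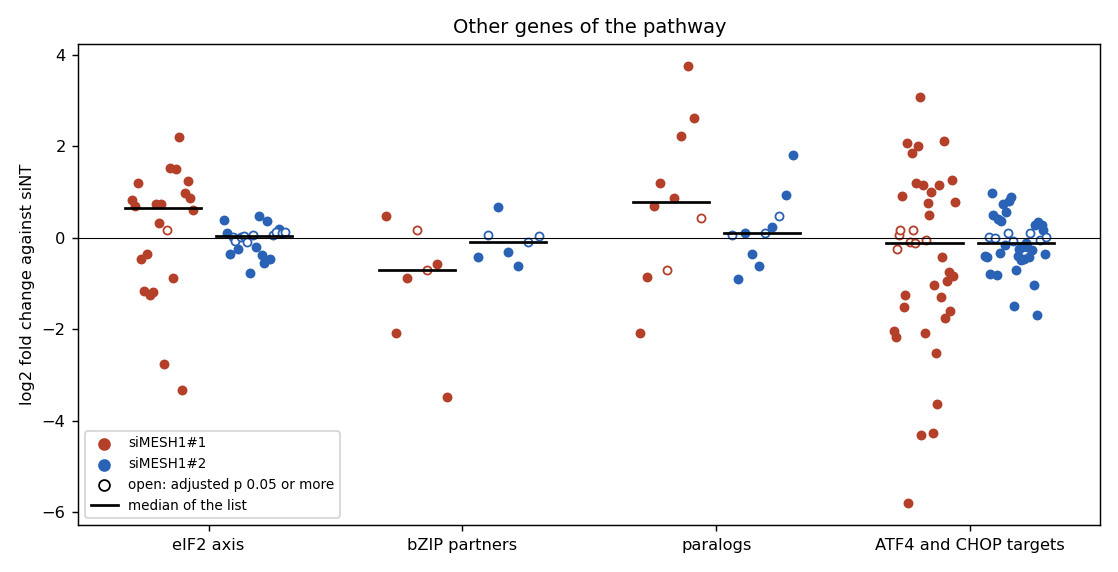
Log2 fold change against siNT (y axis) of the tested genes of 4 lists of the pathway, with siMESH1#1 in red and siMESH1#2 in blue, each point a gene, open where the adjusted p is 0.05 or more and a bar at the list median. The targets of ATF4 and CHOP have medians of -0.11 and -0.12, and changes with siMESH1#1 span a wider range than with siMESH1#2 in each list.

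The genes most like ATF3 in pattern over the 12 libraries, each library taken as its difference from the siNT mean of its experiment on the log2 CPM scale (pseudocount 0.1 CPM), were GLUL (Pearson r = 0.984), UBE4B (r = 0.984) and CAT (r = 0.984) among 11549 genes. Those most like ATF4 were STIM1 (r = 0.998), YY1AP1 (r = 0.998) and ERP29 (r = 0.998). These values are a description over libraries that share depth and, with siMESH1#1, the trend with GC content, and r was above 0.9 for 4.79% of genes with ATF3 and for 11% with ATF4.

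The line was checked against its markers. All 10 markers of renal carcinoma cells were above 1 CPM on average in 3 groups, and 9 in siMESH1#1, with summed levels of 5303 to 5498 CPM in siNT and 6463 to 7020 CPM with siMESH1#1, and of 9391 to 9573 CPM in siNT and 8973 to 9146 CPM with siMESH1#2. Of these 10, 2 rose and 6 fell with siMESH1#1, and 5 rose and 3 fell with GC correction. All genes had 36.9% and 37.2%, and 37.6% and 29.2%. With siMESH1#2, 1 rose and 4 fell, beside 26.6% and 26.7%. CDH6 rose with both siRNAs (1.01 and 0.43), though with siMESH1#1 its change was 0.11 with GC correction (adjusted p = 0.112). The keratins KRT8 (-2.95 and -0.17) and KRT18 (-4.81 and -0.33) fell with both, and with siMESH1#1 also after GC correction (-1.81 and -3.12). Of 8 markers of immune, endothelial, stromal, liver and islet cells, only COL1A1 was above 1 CPM. The summed level of these 8 was 19.5 to 22.5 CPM in siNT and 3.9 to 4.4 CPM with siMESH1#1, and 10.6 to 13.6 CPM in siNT and 25.9 to 29.7 CPM with siMESH1#2, with 5 genes at 0 in 3 groups and 3 at 0 in the siNT of experiment 1. COL1A1, a fibroblast collagen, carried these sums (log2 changes -2.39 and 1.22, and 1.03 with siMESH1#1 after GC correction, adjusted p = 0.108), and the part of such markers in the changes above was not tested.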

How the data were processed

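RNA-seq was measured in 12 libraries of RCC4 cells (2 experiments, 3 siMESH1 and 3 siNT libraries each). The authors deposited raw counts of reads per gene symbol for each library. The submitters' processing notes name FastQC, HISAT2, HTSeq, DESeq2 and hg19, without versions or settings. Reads in no gene were 10.0% to 20.8% of all reads and were left out, as were the authors' own comparison tables, which hold mean levels, fold changes and p-values.

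Counts were tested with edgeR 4.0.16 (R 4.3.3): filterByExpr, TMM scaling, glmQLFit and glmQLFTest within each experiment, and a contrast over 4 groups for the difference between siRNAs. P-values were adjusted by the Benjamini-Hochberg method over all genes and called under 0.05. CPM are TMM-scaled. A count of 3 reads corresponds to 0.0563 to 0.121 CPM across libraries of 24787804 to 49134129 reads in genes, and intervals and floors cover counting error only. The p-values measure the spread between these libraries. GC content, lengths and 3′UTRs came from GENCODE 29 (GRCh38), matched by symbol (21257 symbols by name, 1152 by an older symbol, 1301 unmatched), and promoters from RefSeq. The GC correction used a lowess of log2 CPM (prior count 1, span 0.3).

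In counts simulated with the spread of experiment 1, 11 of 200 genes changed 2-fold were recovered with 0 false calls among 13420 genes. With the spread of experiment 2, 191 of 200 were recovered with 7 false calls among 13571 genes. The simulations gave every gene and both groups of an experiment the same spread, and no trend with GC content. In the data of experiment 1 the siMESH1#1 libraries differed more among themselves than the siNT libraries did. The simulated recovery therefore does not carry over to the calls in these data.

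The 10 genes and the lists were chosen with earlier results of these data known. All 10 genes and HDDC3 are named. From each list up to 4 genes called in the same direction with both siRNAs and up to 2 called in opposite directions are named, those with the largest smaller change, and for ATF3 and ATF4 the 3 genes of most similar pattern. MARS was added after its values were seen, since it overlaps DDIT3. Alternatives were library size scaling, DESeq2 size factors, the DESeq2 1.42.0 test, limma 3.58.1 voom with group weights (difference only), no filter, at least 10 reads in every library, a single fit of 4 groups, a term for replicate number or lane, GC correction, a threshold of 0.01 and leaving out each library. Python 3.11.15 with pandas 2.3.3, numpy 2.4.6 and matplotlib 3.10.9 joined and drew the data.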

Additional observations from a re-analysis of the deposited data

Results flagged for a closer look

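The change differed between the siRNAs in a direct test of the difference (edgeR contrast over 12 libraries) for 8 of the 10 genes. That contrast scaled all 12 libraries together, so its values need not equal the subtraction of the separately fitted changes. In it, the change with siMESH1#1 minus that with siMESH1#2, on the log2 scale, was 1.39 for EIF2AK3, 0.57 for EIF2AK4 and 0.58 for ATF3. It was -1.24 for DDIT3, -1.88 for TRIB3, -1.77 for CHAC1, -1.86 for SESN2 and -0.62 for DDIT4. Of all 14154 genes, 69.7% differed by the same test. This contrast used a shared estimate of the spread, although the spread differed between the experiments. By limma voom with group weights all 10 differed, beside 64.6% of all genes. With library size scaling 7 of the 10 did, beside 69.0%, and with GC correction 7, beside 61.0%. The siRNAs were used in separate experiments, so that siRNA and experiment cannot be told apart in these differences.

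Reads that fell in no gene, which the comparisons do not use, made up 18.4% of reads in the lowest siMESH1#1 library, above the 15.5% of the highest siNT library of the same experiment. Their part in the changes of the 10 genes was not tested.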

How the results depend on the processing

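With siMESH1#2, the call of the 10 genes, and the direction of those called, held in 60 of 60 values that leave out 1 library and in 71 of 80 values under other settings. The exceptions were the single fit of 4 groups and GC correction. The single fit called 2580 genes (18.2%, against 7235 or 53.3% in the reported fit) and 1 of the 10 (8 in the reported fit). Under GC correction ATF4 turned to 0.10 and passed (adjusted p = 0.0173), and DDIT4 passed too. With siMESH1#1, 46 of 60 and 77 of 89 values held, and 9 of the 89, for CHAC1, DDIT4 and PPP1R15A, passed where the reported fit did not. The count of the 10 genes called (5) was 3 at a threshold of 0.01 and ran from 3 to 10 when single libraries were left out. It was 3 without siMESH1#1 replicate 1 or without any of the siNT replicates, 6 without siMESH1#1 replicate 2 and 10 without siMESH1#1 replicate 3. The shares of all genes called in these fits were 60.5% to 62.2%, 77.7% and 81.3%. At the threshold of 0.01 the share was 54.9%, against 74.1% in the reported fit. GC correction turned TRIB3 (0.39), SESN2 (1.57) and DDIT4 (2.12) with siMESH1#1 (the uncalled changes of ATF4, PPP1R15A and CHAC1 also changed sign), and the difference between the siRNAs for TRIB3 (0.67), CHAC1 (1.12), SESN2 (0.66) and DDIT4 (1.76). The cause of these shifts was not tested. The split of all calls with siMESH1#1, 4945 higher and 4981 lower, was 5032 and 3909 with GC correction, 4117 and 5611 with library size scaling and 4914 and 6503 in the single fit. With siMESH1#2 it was 4890 and 3459 with GC correction, against 3613 and 3622.

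The labels number the replicates but state no pairing of same-numbered libraries. Deviations of same-numbered libraries correlated at -0.05, 0.22 and 0.13 in experiment 1 and at -0.06, 0.04 and -0.08 in experiment 2. Not every library correlated best with its own number, and such correlations do not decide whether the libraries were paired. With the replicate block, 9273 genes (69.2%) and 6 of the 10 were called with siMESH1#1 (CHAC1 added, adjusted p = 0.0497). With siMESH1#2 it called 6972 genes (51.4%) and 8 of the 10. In the difference it called 9386 genes (66.3%) and 6 of the 10, where ATF3 (adjusted p = 0.118) and CHAC1 (adjusted p = 0.0567) did not pass. The spread of experiment 1 limits what its depth could show.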

Other observations

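The siNT libraries of the experiments, both of RCC4 cells, differed in several of the 10 genes. Mean levels in experiment 2 were 10.8-fold those of experiment 1 for DDIT4 (274 against 25.5 CPM), 4.58-fold for TRIB3 (331 against 72.3 CPM), 4.21-fold for SESN2 (53.4 against 12.7 CPM) and 1.48-fold for CHAC1. ATF3 was 3.11-fold higher in experiment 1 (28.1 against 9.04 CPM), and PPP1R15A 1.89-fold higher (115 against 60.8 CPM). EIF2AK3 (34.1 and 31.0 CPM) and DDIT3 (15.4 and 17.5 CPM) were close. These values are given side by side with no test, since the experiments were scaled separately and differ in lane. The experiments also differ in the share of reads set aside for low alignment quality (6.31% to 7.59% in experiment 1 and 0 in experiment 2). Reads without a unique alignment were 9.98% to 12.65% in experiment 1 and 23.57% to 27.11% in experiment 2. The part of these differences in the siNT levels was not tested.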
